A study of Homo sapiens with 6 samples.

Results

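The galectin genes LGALS1, LGALS2, LGALS3, LGALS4, LGALS8 and LGALS9 were followed with LGALS3BP, the galectin-3 binding protein gene, in human colorectal cancer cells with lowered PNISR. These 7 genes, of 60664 in the deposited table, were matched by Ensembl ID and symbol. They were chosen from a gene list drawn up with their counts in shPNISR and shNC libraries already known, so their differences between the groups describe the comparison and are not independent evidence. Both groups were HCT-8 cells, an established line from a human colorectal tumour, cultured in the same serum-containing medium. The shNC group had received a plasmid with a control hairpin and the shPNISR group a plasmid with a hairpin against PNISR, which encodes a nuclear protein rich in serine and arginine. Each group had 3 libraries, and the labels name 1 hairpin plasmid per group without its sequence or the time after transfection. Whether the 3 were separate cultures is not stated in the labels, so errors and p-values measure the spread between these libraries, which may be technical.

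Galectins are lectins that bind beta-galactosides, mainly N-acetyllactosamine units on glycoproteins and glycolipids. They are made in the cytosol without a signal peptide and leave the cell by an unconventional route, so they act both on the surface, where they crosslink receptors into lattices, and inside the cell, where they mark damaged endosomes and lysosomes. Galectin-1, galectin-2 and galectin-7 are prototype galectins with a single carbohydrate-binding domain, galectin-3 joins such a domain to a flexible tail, and galectin-4, galectin-8 and galectin-9 carry a pair of different domains on 1 chain. Galectin-3 binding protein is not a lectin of this family but a heavily glycosylated secreted ligand for them. In the gut epithelium galectin-3 and galectin-4 are the characteristic members, while galectin-1 is better known from mesenchymal cells and tumour stroma.

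Total counts ran from 15049485 to 17977803 per library. PNISR, the target of the hairpin, was at 56.1 ± 6.32 CPM in shNC (counts scaled to library size with TMM factors; mean ± SD, n = 3) and at 22.3 ± 4.74 CPM in shPNISR, a log2 fold change of -1.33 ± 0.15 (SE). Epithelial markers were present: KRT8 was at 2239 ± 104 CPM in shNC and EPCAM at 119 ± 24.2 CPM, while KRT20, a marker of mature enterocytes, was near 0 at 0.123 ± 0.130 CPM. The libraries did not divide cleanly by group. The chi-square statistic per degree of freedom over all tested genes was 8.62 between shNC 2 and shPNISR 3, but 18.9 between shNC 2 and shNC 1 and 20.2 between shNC 2 and shNC 3, so by this measure shNC 2 was closer to a shPNISR library than to its own group. The closeness was mutual, as shPNISR 3 was at 9 from shPNISR 1 and at 15.2 from shPNISR 2. The shPNISR 3 library also held the most PNISR of its group, at 27.6 CPM against 18.5 and 20.7 CPM. Because shNC 2 was singled out for its closeness to a shPNISR library, leaving it out favours wider group differences. Genes called over the whole table went from 371 higher and 134 lower to 1284 and 746. Fold changes of the 7 genes are given with and without shNC 2, while the level orders and correlations include it. Without shNC 1 instead, all 7 log2 fold changes were smaller than with every library, at 1.08 for LGALS1, 0.57 for LGALS4 and 1.43 for LGALS9.

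For all 7 genes the lowest shPNISR library had a higher CPM than the highest shNC library. Such a separation was found in 11.5% of the 16102 genes tested. At an adjusted p of 0.05 over all genes (edgeR, quasi-likelihood), 6 of the 7 were called higher, LGALS4 being the exception, where 2.3% of all tested genes were called higher and 0.832% lower. Nothing is read from these shares, because the comparison itself entered the choice of the genes. The median log2 fold change was 0.76 for the 7 genes and -0.01 for all tested genes. LGALS2 and LGALS9 reached the low-count filter in all 3 shPNISR libraries but in only 1 shNC library each, so they were tested because they were high in shPNISR.

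**Figure D1:**
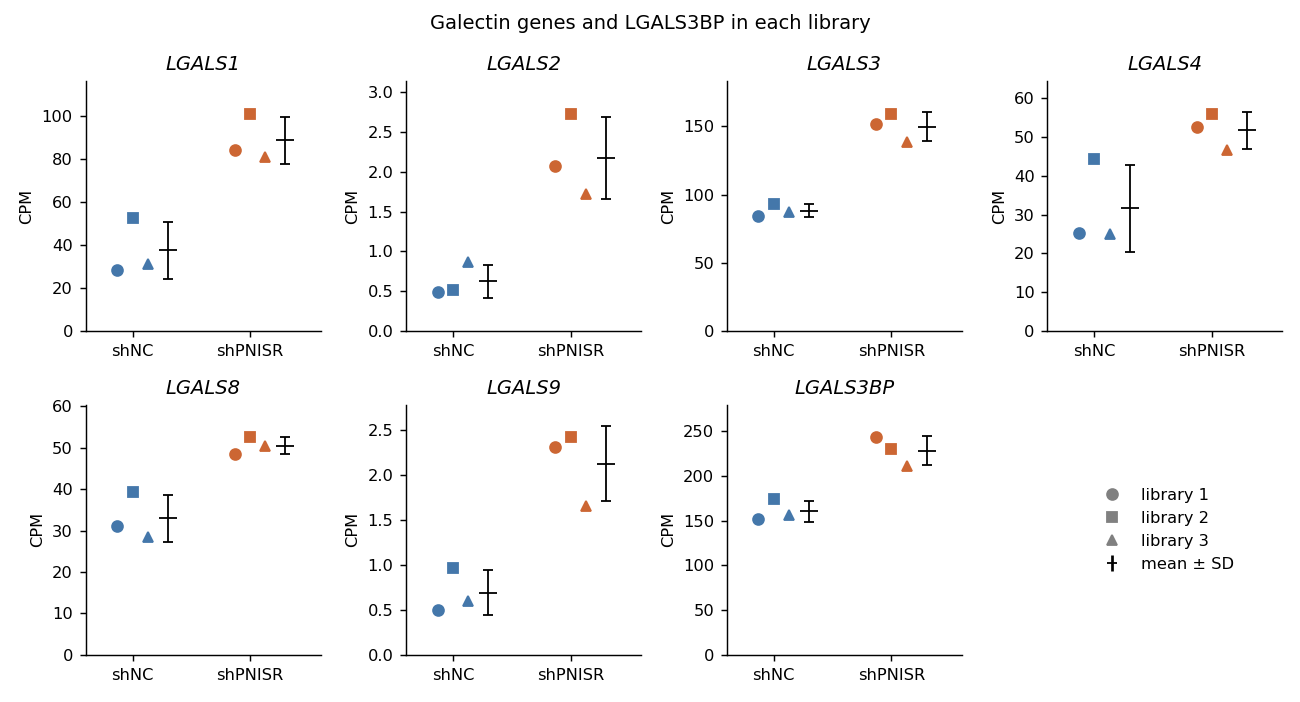
CPM (TMM-scaled) of each gene in the 3 shNC and 3 shPNISR libraries, with the mean ± SD beside the points; symbols mark the library number and every axis starts at 0. The groups do not overlap in any panel, and shNC 2 (blue square) is the highest control for every gene but LGALS2.

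Among the prototype galectins, LGALS1 was the one with substantial expression. Galectin-1 is a secreted dimer that crosslinks surface glycoproteins and promotes T cell death. The shNC libraries 1 to 3 held 516, 815 and 468 reads of it and the shPNISR libraries 1423, 1628 and 1315, or 28.5, 52.8 and 31.2 CPM against 84.3, 100.97 and 80.6 CPM. The shNC 2 library was well above the other controls but still below every shPNISR library. The mean was 37.5 ± 13.3 CPM in shNC and 88.6 ± 10.8 CPM in shPNISR, a 2.37-fold difference (log2 fold change 1.24 ± 0.20 SE). Without shNC 2 the log2 fold change was 1.57 ± 0.13. LGALS1 (ENSG00000100097) lies on the plus strand of chromosome 22 at 37675608 to 37679806 (GRCh38) and overlaps no other annotated gene.

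LGALS2 lies on the same chromosome, on the minus strand at 37570246 to 37582616 (ENSG00000100079). Galectin-2 is a prototype galectin made mainly in the epithelium of the gut. It was barely expressed here, with 9, 8 and 13 reads in the controls against 35, 44 and 28 after knockdown. The groups were separate, with shPNISR 2 the highest library. This corresponds to 0.627 ± 0.207 and 2.17 ± 0.513 CPM, a log2 fold change of 1.79 ± 0.36 (1.68 ± 0.40 without shNC 2) that has the largest value of the 7 genes and, with LGALS9, the largest error. It was the only one of the 7 in which shNC 2 was not the highest control.

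LGALS3, the chimera-type galectin that is abundant in colon epithelium, had the smallest SD relative to its mean in shNC. The controls held 1528, 1441 and 1310 reads of it and the shPNISR libraries 2559, 2569 and 2261, or 84.4, 93.3 and 87.2 CPM against 152, 159 and 139 CPM. The lowest shPNISR library was above the highest control by more than the range within either group. The means were 88.3 ± 4.56 and 149.8 ± 10.4 CPM, a 1.70-fold difference (log2 fold change 0.76 ± 0.11), and 0.80 ± 0.12 without shNC 2. LGALS3 (ENSG00000131981) is on the plus strand of chromosome 14 at 55124110 to 55145413.

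LGALS3BP had the highest CPM of the 7. Its product, a secreted scavenger receptor glycoprotein also known as 90K, binds galectin-3 and integrins and is a known interferon-inducible gene product. It was at 151, 174 and 156 CPM in the controls and at 243, 230.03 and 211 CPM after knockdown, from counts of 2743, 2683 and 2345 against 4105, 3709 and 3440. The groups were separate, and the log2 fold change was the smallest of the 7, although the difference in CPM was the largest: from 160.4 ± 11.7 to 228 ± 16.2 CPM (log2 fold change 0.51 ± 0.11, and 0.56 ± 0.11 without shNC 2). The value was 0.36 ± 0.08, and still passed, after each library was corrected for the GC content and length of genes. LGALS3BP (ENSG00000108679) is a minus-strand gene of chromosome 17, at 78971238 to 78980109.

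The promoters of LGALS3BP and LGALS3 are shown because these 2 genes have the highest CPM of the 7 and carry different motifs. Each is the 250 bases before the RefSeq start (GRCh38.p14), read 5′ to 3′ on the gene's strand, for LGALS3BP at chr17:78979924-78980173 (minus strand) and for LGALS3 at chr14:55129002-55129251 (plus strand). Capitals mark motif matches on either strand.
LGALS3BP: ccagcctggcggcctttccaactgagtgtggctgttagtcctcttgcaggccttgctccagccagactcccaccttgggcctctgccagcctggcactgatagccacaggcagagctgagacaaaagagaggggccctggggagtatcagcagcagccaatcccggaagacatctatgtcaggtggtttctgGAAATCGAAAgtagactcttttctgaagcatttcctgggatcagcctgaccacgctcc
LGALS3: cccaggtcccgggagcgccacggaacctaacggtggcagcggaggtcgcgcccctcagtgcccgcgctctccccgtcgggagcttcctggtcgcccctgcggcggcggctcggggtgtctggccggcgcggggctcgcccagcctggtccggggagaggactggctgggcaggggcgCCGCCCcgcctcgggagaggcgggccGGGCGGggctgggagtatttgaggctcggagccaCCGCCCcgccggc
The LGALS3BP window holds 1 match to the core of the interferon-stimulated response element (GAAA, any 2 bases, GAAA), from 58 to 49 bases before the start. The LGALS3 window holds 3 matches to the GC box (GGGCGG), none overlapping another, and 78.8% of its bases are G or C. Of 35116 RefSeq promoter windows of this length, 3.02% hold the interferon motif and 42.64% the GC box. The AP-1 site (TGACTCA or TGAGTCA, in 4.2% of windows) was in none of the 8 windows of the 6 genes matched in the table, which for LGALS8 hold 3 alternative starts. The TATA box core (TATAAA, in 10.72% of windows) was found only in a window of LGALS8, another of which held 1 GC box. The windows of LGALS2, LGALS4 and LGALS9 held no match to any of the 4 motifs, and LGALS1 was not matched. A match is a string of letters and was not tested as a binding site.

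LGALS4 was the 1 gene of the 7 that did not pass. Galectin-4 is a tandem-repeat galectin of the intestinal epithelium that organises apical membrane transport. Its CPM was 25.2, 44.4 and 25.1 in shNC and 52.6, 55.9 and 46.5 in shPNISR, from counts of 456, 686 and 377 against 888, 902 and 758. The shNC 2 library came within a small margin of shPNISR 3. The means were 31.6 ± 11.1 and 51.67 ± 4.796 CPM (log2 fold change 0.71 ± 0.19), short of the threshold over all genes. Without shNC 2 it was 1.04 ± 0.13 and passed, and it also passed without shNC 3. LGALS4 (ENSG00000171747) is a minus-strand gene of chromosome 19, at 38801671 to 38813364.

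LGALS8 encodes a tandem-repeat galectin that binds integrins and, on burst vesicles, recruits the autophagy receptor encoded by CALCOCO2. The controls held 564, 608 and 427 reads and the shPNISR libraries 818, 846 and 823, giving 31.1, 39.4 and 28.4 CPM against 48.4, 52.5 and 50.5 CPM. The shPNISR libraries were close together and all above shNC 2. The log2 fold change was 0.61 ± 0.13, and 0.76 ± 0.13 without shNC 2. LGALS8 (ENSG00000116977; plus strand of chromosome 1, 236518000 to 236552981) overlaps HEATR1 and LGALS8-AS1 on the other strand, and no source used here says whether the counting used strand. HEATR1, a ribosome biogenesis gene, went the other way, from 196 ± 31.0 to 141 ± 15.4 CPM (log2 fold change -0.48 ± 0.13, edgeR adjusted p = 0.0419). LGALS8-AS1 was at 0.398 ± 0.106 and 0.833 ± 0.239 CPM. Without strand, reads of LGALS8 and of these genes cannot be told apart where they overlap.

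LGALS9, which encodes the tandem-repeat ligand of the T cell receptor TIM-3 and is known to be induced by interferon, was at the edge of detection. It had 9, 15 and 9 reads in the controls against 39, 39 and 27 after knockdown, without overlap. The means were 0.689 ± 0.250 and 2.13 ± 0.413 CPM (log2 fold change 1.63 ± 0.36, and 1.95 ± 0.40 without shNC 2). LGALS9 (ENSG00000168961) lies on the plus strand of chromosome 17 at 27629798 to 27649560. Its close copies LGALS9B and LGALS9C had at most 1 and 2 counts in any library, and reads that fit several copies may have been dropped or split.

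Levels were compared between genes as CPM per kilobase of merged exons (GENCODE release 29). In shNC the order was LGALS3BP at 44.8 ± 3.27, LGALS3 at 36.8 ± 1.90 and LGALS1 at 34.1 ± 12.1 CPM per kilobase, where LGALS1 ran from 25.9 to 48.0 and so was not separate from the other two. In shPNISR LGALS1 came first at 80.6 ± 9.87 CPM per kilobase, with its lowest library at 73.4 above the highest of LGALS3BP at 67.8, while LGALS3BP (63.6 ± 4.51) and LGALS3 (62.5 ± 4.36) overlapped. LGALS4 followed at 11.9 ± 4.21 in shNC and 19.5 ± 1.81 in shPNISR, then LGALS8 at 3.40 ± 0.586 and 5.20 ± 0.208, LGALS2 at 0.757 ± 0.250 and 2.62 ± 0.620, and LGALS9 at 0.121 ± 0.0437 and 0.372 ± 0.0722, with no overlap between neighbours in either group. Divided by the longest coding transcript instead, LGALS3 had the highest mean in shNC at 77.0 ± 3.98, with LGALS3BP at 66.7 ± 4.88. LGALS1, at 66.9 ± 23.8 in shNC, could not be put in order with either, and it still led in shPNISR. Of the summed CPM of the 7 genes, LGALS1 took 8.86, 13.03 and 9.46% in shNC and 14.4, 16.7 and 15.2% in shPNISR.

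Together the 7 genes summed to 321.6, 405.0 and 329.6 CPM in the controls, against 584, 604 and 531 CPM in the knockdown libraries. Within shPNISR the order of libraries was also shared: 6 of the 7 genes were lowest in shPNISR 3, as were 5695 of the 16102 tested. The shNC 2 library was the highest control for 6 of the 7 genes, against 37.4% of all tested genes. On the log2 scale shNC 2 exceeded the mean of the other two controls by 0.82 for both LGALS1 and LGALS4, and by 0.12 for LGALS3. The share of counts from mitochondrial transcripts was 2.42, 1.80 and 2.48% in shNC and 1.69, 1.61 and 2.00% in shPNISR. It tended to be lower where these sums were higher, but not strictly. Both sum and share were higher in shPNISR 3 than in shNC 2, and in shNC 3 than in shNC 1. The part of this share in the galectin differences was not tested.

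**Figure D2:**
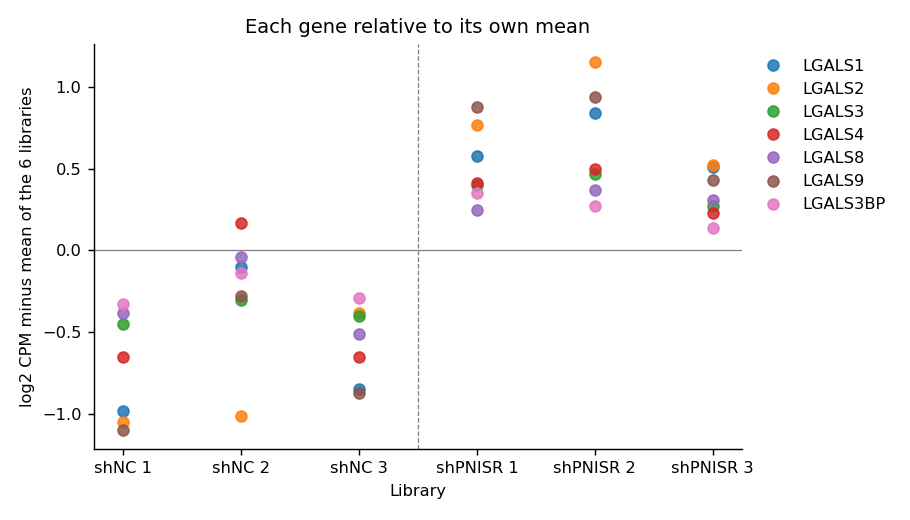
Log2 CPM of each gene in each library minus that gene's mean over the 6 libraries; the dashed line divides shNC (left) from shPNISR (right). In shNC 2, LGALS4 (0.17) lies above its own mean and LGALS1 (-0.10) just below it, while LGALS2 (-1.01) stays with the other controls.

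Across the 6 libraries the log2 CPM of the 7 genes correlated with each other at Pearson's r between 0.725 (LGALS2 with LGALS4) and 0.991 (LGALS9 with LGALS3BP); these values share the same 6 libraries and the same group difference. The genes with the most similar profiles among about 11681 candidates of at least 5 CPM were other genes than the 7. LGALS2 and LGALS9 were below that level and could not be candidates. Each r is the highest of that many values over the same 6 libraries, so values near 1 say little about a shared control. For LGALS1 they were FOLR1, a folate receptor gene (r = 0.998), and SIAE, which encodes a sialic acid esterase (0.997). For LGALS3 they were ARSL (0.999) and KIAA2013 (0.996), for LGALS4 the lysosomal protease gene CTSB (0.998) and LITAF (0.997), and for LGALS8 the growth factor receptor gene FGFR4 (0.997) and the membrane mucin gene MUC3A (0.995). LGALS9 was closest to DBNDD1 (0.999) and UNC93B1, a chaperone gene of endosomal Toll-like receptors (0.998), LGALS3BP to the lamin gene LMNA and CCDC92 (0.996 for both), and LGALS2 to GCHFR (0.996) and QPCT (0.992). SIAE, KIAA2013, CTSB, LITAF, DBNDD1 and CCDC92 were not called between the groups, and the other similar genes were called higher.

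The remaining galectin family genes were mostly silent. Of 11 such genes, LGALS13, LGALS14, LGALS16 and GRIFIN had no count in any library, and LGALS9B, LGALS9C, LGALS12 and CLC too few to test. Of the 3 tested, 1 was called higher and none lower (2 higher and none lower at an unadjusted p of 0.05; 1 higher and none lower by DESeq2 and by limma voom). Over all 16102 tested genes, 2.3% were called higher and 0.832% lower, and 2862 had an unadjusted edgeR p under 0.05, in either direction. DESeq2 called 477 of all genes higher and 229 lower, and limma voom 389 and 114. LGALS7B, which encodes the galectin of stratified epithelia, had 103, 119 and 85 reads in the controls and 197, 180 and 145 after knockdown (log2 fold change 0.74 ± 0.19, edgeR adjusted p = 0.0447). Its call ended in 8 of 16 alternative settings, among them leaving out any library but shNC 2. It and LGALS7 are nearly the same sequence, which makes either count uncertain. Summed, they were at 5.74, 8.29 and 5.86 CPM in the controls and 12.6, 12.03 and 9.69 CPM after knockdown, again without overlap and with shNC 2 the highest control. LGALS7 alone had 1, 9 and 3 reads in the controls against 16, 14 and 13 and did not pass (1.66 ± 0.56). LGALS7 reached the low-count filter in the shPNISR libraries alone, so it was tested because it was high there. The galectin-like gene LGALSL, whose product lacks sugar binding, was the only family member tested with a value below 0 (33.6 ± 2.70 and 28.2 ± 0.975 CPM, log2 fold change -0.25 ± 0.13, edgeR adjusted p = 0.314).

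**Figure D3:**
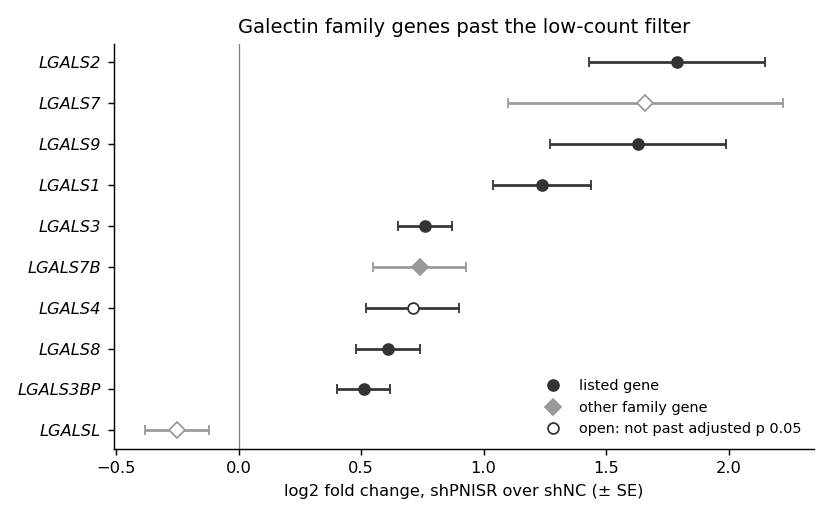
Log2 fold change of shPNISR over shNC with its standard error for the 10 galectin family and LGALS3BP genes that were tested, ordered by value; filled symbols passed an adjusted p of 0.05. All but LGALSL lie above 0, from LGALS3BP at 0.51 to LGALS2 at 1.79. LGALS2, LGALS7 and LGALS9 were tested because they were high in shPNISR.

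The genes beside the 7 in the genome were also examined. Of 49 tested genes within 200 kb of any of the 7, other galectins left out, 3 were called higher and 1 lower, with a median log2 fold change of 0.03. Over all tested genes, 2.3% were called higher and 0.832% lower. LGALS1 and LGALS2 lie in the same stretch of chromosome 22, where the median log2 fold change was 0.01 for the 14 tested neighbours of LGALS1 (8 above 0) and 0.27 for the 10 of LGALS2 (7 above 0), many of them the same genes. Single values ran from -0.49 ± 0.26 for AL022311.1 to 0.77 ± 0.30 for MFNG. Those called were RINL near LGALS4 (1.13 ± 0.29), NOS2 near LGALS9 (0.87 ± 0.23), RBFOX3 near LGALS3BP (1.44 ± 0.35) and, lower, HEATR1. These neighbours were named after their values were seen.

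Galectins need their sugar ligands, so the enzymes that build and cap them were examined. Of 22 tested enzymes of N-glycan branching, N-acetyllactosamine synthesis and O-glycan cores, 2 rose, none fell and 20 did not pass, with a median log2 fold change of 0.07. At an unadjusted p of 0.05 there were 4 higher and 1 lower, and DESeq2 and limma voom each called 2 higher and none lower. Of all tested genes, DESeq2 called 477 higher and 229 lower, and limma voom 389 and 114. Over all 16102 tested genes, 2862 had an unadjusted edgeR p under 0.05, and 2.3% were called higher and 0.832% lower. The 1 lower enzyme was MGAT5, which branches N-glycans, at 157 ± 26.0 and 117 ± 17.1 CPM (-0.43 ± 0.13, edgeR adjusted p = 0.0964). None of the MGAT genes was called. GCNT3, which makes the branched core of mucin O-glycans, rose from 4.58 ± 0.429 to 10.9 ± 1.32 CPM (log2 fold change 1.26 ± 0.19, edgeR adjusted p = 0.00107). GCNT2, the I-branching enzyme of polylactosamine chains, rose from 5.75 ± 0.722 to 9.54 ± 0.540 CPM (0.73 ± 0.19, edgeR adjusted p = 0.0388). Of 16 tested enzymes that add or remove sialic acid and fucose, 1 rose, none fell and 15 did not pass, with a median of 0.15 (5 higher and none lower at an unadjusted p of 0.05; 1 higher and none lower by DESeq2, 0 of either by limma voom). It was ST6GALNAC1, which caps mucin O-glycans with sialic acid, at 2.57 ± 0.330 and 4.89 ± 1.00 CPM (0.93 ± 0.24, edgeR adjusted p = 0.0429). The calls of GCNT2 and ST6GALNAC1 ended in 7 and 8 of 16 alternative settings, among them leaving out shNC 1 or any 1 shPNISR library. Of the enzymes higher at an unadjusted p of 0.05, FUT3 reached the low-count filter in 3 shPNISR and 0 shNC libraries. FUT3 was thus tested because it was high in shPNISR. B3GNT7, also among them, reached the filter in 3 shPNISR but only 2 shNC libraries.

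Among 28 tested surface and matrix glycoproteins that galectins bind, 2 rose, none fell and 26 did not pass, with a median log2 fold change of 0.15. At an unadjusted p of 0.05 there were 8 higher and 2 lower, DESeq2 called 3 higher and 2 lower, and limma voom 3 higher and none lower. Of all tested genes, DESeq2 called 477 higher and 229 lower, and limma voom 389 and 114. Over all 16102 tested genes, 2862 had an unadjusted edgeR p under 0.05, and 2.3% were called higher and 0.832% lower. CD44, the hyaluronan receptor, rose from 16.6 ± 3.99 to 30.2 ± 1.59 CPM (0.87 ± 0.16, edgeR adjusted p = 0.00475). By library these were 15.6, 21.0 and 13.2 against 30.7, 31.5 and 28.5 CPM, with shNC 2 again the highest control, and the log2 fold change was 1.06 ± 0.15 without it. MCAM, a melanoma-associated adhesion receptor that binds galectin-1 and galectin-3, rose from 35.9 ± 4.28 to 57.3 ± 4.23 CPM (0.67 ± 0.13, edgeR adjusted p = 0.00538), a call that ended without shPNISR 1. Without shNC 2, 5 of the list were higher and 1 lower, where 1284 of all 16500 tested genes were higher and 746 lower.

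None of the 20 tested genes of the response to damaged endosomes and lysosomes was called by edgeR in either direction, 1 was higher at an unadjusted p of 0.05, and DESeq2 and limma voom called 0. Over all 16102 tested genes, 2.3% were called higher and 0.832% lower, and 2862 had an unadjusted edgeR p under 0.05. DESeq2 called 477 of all genes higher and 229 lower, and limma voom 389 and 114. The median log2 fold change was -0.01. SQSTM1, an autophagy receptor, was at 706.5 ± 34.6 and 823 ± 104 CPM (0.22 ± 0.12), and PDCD6IP, a membrane repair factor, at 203 ± 16.8 and 198 ± 8.14 CPM (-0.04 ± 0.11).

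**Figure D4:**
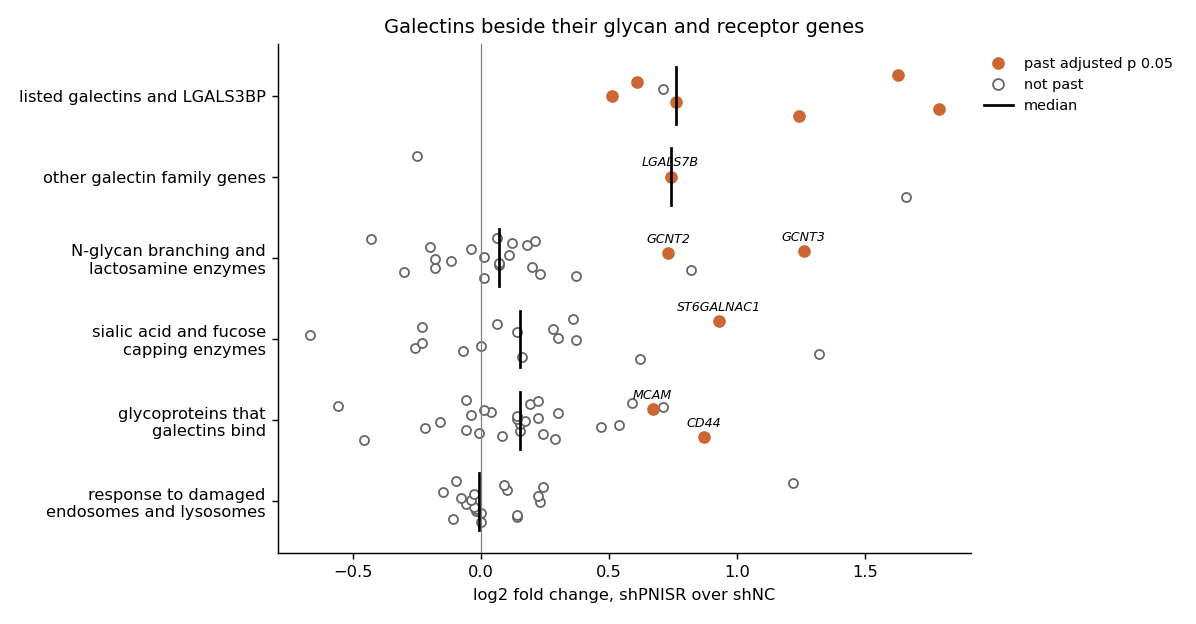
Log2 fold change of shPNISR over shNC for each tested gene of the 6 groups, 1 point per gene, with the group median as a bar; filled points passed an adjusted p of 0.05 over all genes. The median is 0.76 for the 7 genes, 0.74 for the 3 other family genes, 0.07 and 0.15 for the glycan enzymes, 0.15 for the glycoproteins and -0.01 for the damage response.

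Markers of other cells were measured because galectin-1 is abundant in fibroblasts and galectin-9 in immune cells, and in bulk RNA more cells of a type and more RNA per cell cannot be told apart. Of 10 fibroblast markers, COL1A2 and FAP had no count in any library and THY1 had 1 in all, 6 were tested and 1, ACTA2 (smooth muscle actin), rose (0.68 ± 0.16, edgeR adjusted p = 0.0248), a call that ended without shNC 1 or any 1 shPNISR library. The list summed to 26.1 to 36.4 CPM in the controls and 41.8 to 45.5 CPM after knockdown, and its part in the galectin values was not tested. Of 8 leukocyte markers, PTPRC was at 0 everywhere, 4 were tested and 1 was called lower. This was LYZ, with 16, 21 and 21 reads in the controls against 1, 5 and 8 (-2.05 ± 0.51, edgeR adjusted p = 0.0337), and the call was lost when any 1 of the shPNISR libraries was left out. It reached the low-count filter in the shNC libraries alone, so it was tested because it was high there. The 8 had sums of 4.69 to 5.89 against 5.98 to 7.44 CPM. The 5 endothelial markers summed to 0.718 to 1.49 against 1.47 to 1.66 CPM, and VWF, the only one tested, did not pass (0.73 ± 0.45, and 1.28 ± 0.51 without shNC 2). VWF reached the low-count filter in all 3 shPNISR libraries but in only 1 shNC library. Over all 16102 tested genes, 2.3% were called higher and 0.832% lower, and 2862 had an unadjusted edgeR p under 0.05. DESeq2 called 477 of all genes higher and 229 lower, and limma voom 389 and 114. Of 9 tested colon epithelial markers, LGALS4 among them, 2 rose and none fell (4 higher and none lower at an unadjusted p of 0.05; 3 higher by DESeq2 and by limma voom): CDH17 from 17.6 ± 2.97 to 44.1 ± 2.26 CPM (edgeR adjusted p = 5.74e-05) and KRT19 from 388 ± 94.6 to 593 ± 67.1 CPM (edgeR adjusted p = 0.0365, lost without shNC 1 or any 1 shPNISR library), with a log2 fold change of 0.61 ± 0.15 and of 0.82 ± 0.13 without shNC 2.

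The fold changes of the 7 genes stayed above 0 in all 112 values from 16 alternative settings. LGALS1 and LGALS3 passed the test in all 16, with log2 fold changes of 1.05 to 1.57 and 0.71 to 0.82. The calls of the others depended on single libraries. Without shNC 1 the 2 genes called were LGALS1 and LGALS3, and without shPNISR 1 the 3 called were LGALS1, LGALS2 and LGALS3. LGALS9 also lost its call without shPNISR 2, and LGALS8 without shPNISR 3, so that 5 were called in each case. LGALS4 passed in 6 of the 16 settings, including DESeq2, limma voom and leaving out shNC 2 or shNC 3.

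**Figure D5:**
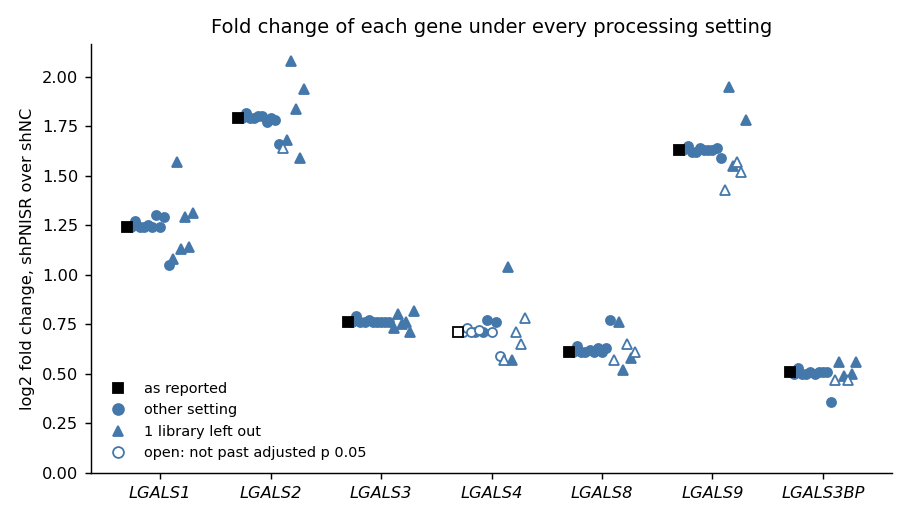
Log2 fold change of each of the 7 genes as reported (square), under 10 other processing settings (circles) and with each library left out in turn (triangles); open symbols did not pass an adjusted p of 0.05. LGALS1 and LGALS3 are filled throughout, and LGALS4 is open as reported and filled in 6 settings.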

How the data were processed

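RNA from 6 HCT-8 libraries was sequenced, 3 per group. The authors deposited whole-number read counts per Ensembl gene, not normalized; HISAT2 2.0.4 and GRCh38 are named per the submitters' processing notes. Not given in the sources used here: the counter, its annotation release and its strand setting. Reads of overlapping genes or near-identical copies may be shared or lost. Columns were matched to libraries by title.

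Of 60664 IDs, 60463 had a symbol. filterByExpr (minimum count 10, total 15) left 16102 genes. Counts were TMM-scaled and tested with edgeR 4.0.16 (R 4.3.3; quasi-likelihood, robust dispersions, two-sided), with Benjamini-Hochberg adjustment over all genes and a threshold of 0.05. Standard errors came from the fold change and test statistic. The test was checked on simulated data. No libraries of a group agreed within sampling noise, so each counted once. Positions, GC content and exon lengths are from GENCODE release 29 (99.35% of tested genes), promoters from RefSeq. Alternatives were 3 other scalings, 2 other filters, DESeq2 1.42.0, limma voom (3.58.1), no robust dispersion, a replicate block, a GC and length correction (loess, span 0.4) and leaving out each library.

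The genes, the 10 lists and the tests were chosen with earlier results of these data known. The naming rule takes the 7 genes, PNISR, and from each other list up to 6 genes that passed, or else the 2 with the highest CPM; it takes 2 most similar profiles per gene (log2 CPM, prior count 2, at least 5 CPM). KRT8, KRT20, EPCAM, LGALS7, LGALSL, MGAT5, FUT3, B3GNT7 and the overlapping and neighbouring genes were named after their values were seen.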

Additional observations from a re-analysis of the deposited data

How the results depend on the processing

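Of the 16 alternatives, 14 kept the count of called galectins within 1.5 times of 6. With each library left out in turn it ran from 2 to 7, and genes called over the whole table ran from 133 to 1284 higher and from 30 to 746 lower. Leaving out shNC 1 gave 153 higher and 46 lower, leaving out shNC 2 gave 1284 and 746. Library totals gave 71 lower genes, DESeq2 gave 229 lower, and no low-count filter gave 642 higher and 354 lower. PDCD6IP changed sign, to 0.12 with the GC content and length correction and 0.01 without shNC 2, from -0.04 (-0.10 to 0.01 with each library left out); the cause was not tested. The calls of LGALS7B (8 of 16 settings), KRT19 (5), ACTA2 (4) and LYZ (4 of 15) ended in part, and those of GCNT3, CD44 and CDH17 in none. No scaling moved the median of all genes by more than 0.02 from 0.

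With the replicate number as a block, 390 genes were higher and 118 lower, and all 7 galectin genes were called, with LGALS4 at 0.76 ± 0.15. Over all genes the numbers showed no pairing of the libraries. Deviations of same-numbered libraries correlated at 0.12, -0.08 and -0.15, and not every library correlated best with its own number. With 3 libraries per group these values cannot decide whether libraries were paired. Of the 7 genes, 6 were highest in shNC 2 among controls and 6 in shPNISR 2 among knockdown libraries. Of all 16102 tested genes, 6017 and 5209 were. At 8 to 44 counts per library, LGALS2 and LGALS9 have wide errors.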
